A study of Mus musculus with 24 samples.

Results

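The genes described here encode the pore-forming and auxiliary subunits of the potassium channels (Kcn genes) and of the voltage-gated sodium (Scn) and calcium (Cacn) channels of the mouse. They were taken by symbol from a cRNA-seq gene table of embryonic stem cells (ESCs), without antisense transcripts and without the noncoding RNA Kcnq1ot1, and a symbol with several transcripts was represented by the one with the most normalised reads. This gave 134 of 19409 gene symbols, and the choice used no measured difference between conditions. A pair of male E14 ESC lines was compared before and after 4-hydroxytamoxifen (OHT), which activates a Cre recombinase expressed from the Rosa26 locus (Rosa26::ERT2-Cre) in both. PRC1CKO cells (Ring1a-/- with Ring1bfl/fl) lack RING1A throughout and lose RING1B with OHT. PRC1CPM cells carry Ring1a with the I50A/D53K substitutions throughout, and OHT turns their floxed Ring1b into the I53A/D56K form, which leaves RING1A and RING1B without catalytic activity. Cells were untreated (UNT) or received 800 nM OHT for 72 h, with 3 replicates of each of the 4 conditions and thus 12 libraries. Each line is 1 clone, so that clone and genotype cannot be told apart where the lines are compared.

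Ion channels of these families set the membrane potential and the firing of excitable cells. Sodium and calcium channels carry inward current when the membrane depolarises, most potassium channels carry the outward current that restores the resting state, and auxiliary subunits change how many channels reach the membrane and how fast they open and close. Neurons, heart and skeletal muscle each use their own combination. PRC1 is the Polycomb complex that monoubiquitylates histone H2A through RING1A or RING1B and keeps developmental genes at a low level in ESCs.

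Libraries held 14668159 to 27016156 reads on gene bodies. Values are normalised read counts, in which the authors divided the reads over a gene body by a size factor from Drosophila cells mixed in before RNA extraction. Introns are included, and exons made up a median of 9.28% of the body of a channel gene. Rnf2, which encodes RING1B, had 1756, 1436 and 1385 normalised read counts in untreated and 1489, 1565 and 1585 in OHT-treated PRC1CKO libraries, and 1850.1, 1659 and 1578 before and 1724, 1295 and 1513 after OHT in PRC1CPM cells. A count over the whole body does not show the loss or inversion of an exon, and Rnf2 (adjusted p = 0.963 and 0.763, limma) does not check the OHT labels. Ring1, which encodes RING1A, had 313, 204 and 166 normalised read counts in untreated and 281, 251 and 229 in OHT-treated libraries of the line labelled Ring1a-/-, and 179, 182 and 125 and 161, 111 and 148 in PRC1CPM libraries. It was thus not lower in the line labelled as lacking it: untreated libraries overlapped, and OHT-treated PRC1CKO libraries all lay above PRC1CPM ones, with log2 differences of PRC1CPM from PRC1CKO cells of -0.46 (adjusted p = 0.561, limma) and -0.86 (adjusted p = 0.156). The methods give a deletion of its first exons, whose reads cannot be told from the rest of the body in these counts, so that no measured value checks the Ring1a-/- label, and the lines are named as labelled. The ESC transcription factor genes Pou5f1, Nanog and Sox2 had mean normalised read counts of 4734, 5326 and 7151 in untreated PRC1CKO and of 4539.8, 4293 and 6223 in untreated PRC1CPM cells (n = 3 each).

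Many channel genes rose after OHT in both lines. Of the 134 genes, 119 had at least 10 reads in at least 3 libraries and were tested with limma. In PRC1CKO cells 54 rose and 3 fell (called where the adjusted p was below 0.05 and the fold exceeded 1.5), whereas 16.5% of all 16940 transcripts tested rose and 3.09% fell. In PRC1CPM cells 54 rose and 2 fell, against 13.1% and 1.4% of all transcripts. The number that rose in both lines was 50, and 11.6% of all transcripts did so. Risers made up 45.4% of the tested channel genes in each line. The genes that fell made up 2.52% and 1.68%, near the shares of all transcripts. TMM in place of the spike-in scale gave 11 and 5 of them, beside 1133 and 595 of the 16940 transcripts. A fit with the replicate number as a block gave 9 and 5, beside 823 and 461. Of the tested genes 12 reached 10 reads in 3 libraries only through OHT-treated cells, and 8 of these were among the 50. Each of the 12 entered the test through the cells in which it was high, so that its adjusted p is no separate support for a rise. Those described below are Kcnj5, Kcnk10, Kcne1, Kcne3, Kcnip4, Kcna4, Kcnv1 and Cacng1.

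The median log2 fold change of the tested channel genes was 0.92 in PRC1CKO and 0.80 in PRC1CPM cells, beside 0.12 and 0.10 over all transcripts tested. Summed over the 134 genes, PRC1CKO libraries held 47972, 34602 and 33067 normalised read counts before and 70646, 55097 and 64580.3 after OHT. In PRC1CPM cells the sums were 44605, 37319 and 35212 before and 76801, 55321 and 56965 after, with Cacna1a, a P/Q-type calcium channel gene chosen here after its values were seen, the most abundant. Every OHT-treated library of a line lay above every untreated library of that line, and in each condition replicate 1 was the highest. The 3 OHT-treated libraries lay above the 3 untreated ones for 62 tested channel genes in PRC1CKO and 63 in PRC1CPM cells, beside 22.1% and 18.7% of all transcripts. They lay below for 8 and 4, beside 8.52% and 3.7%.

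**Figure D1:**
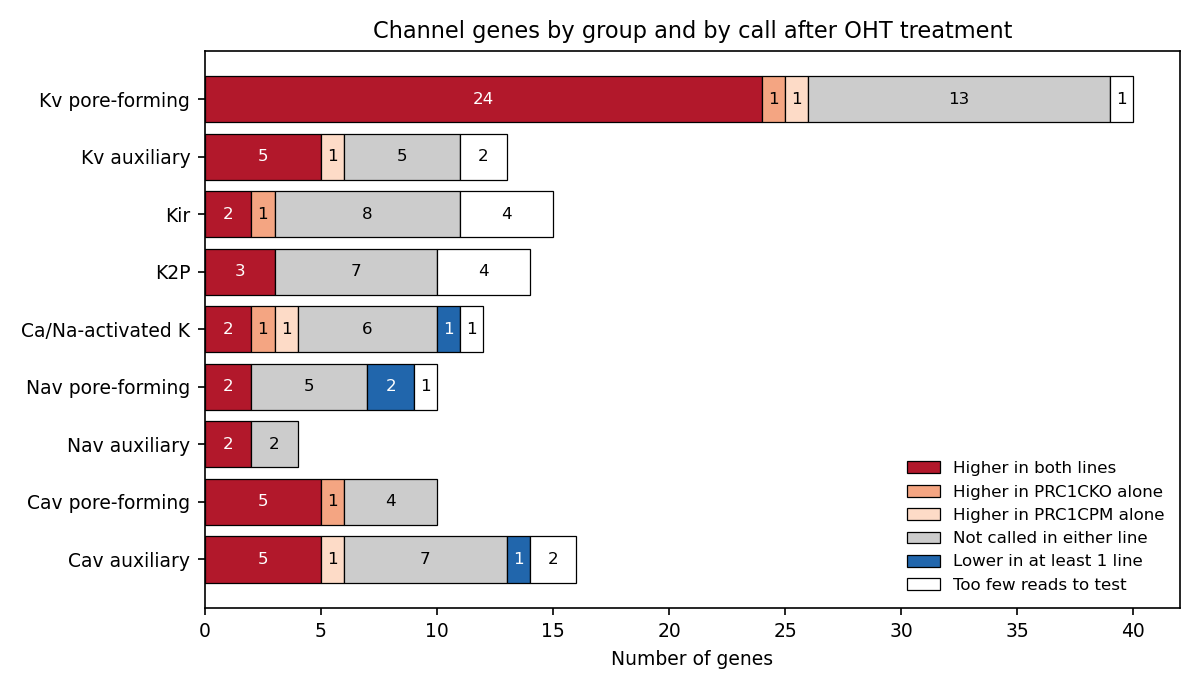
Number of channel genes (x axis) in each of 9 groups (y axis), coloured by call after OHT treatment in PRC1CKO cells, PRC1CPM cells or both, with genes of too few reads in white. The pore-forming subunits of voltage-gated potassium channels (Kv) hold 24 of the 50 genes that rose in both lines.

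Pore-forming subunits of the voltage-gated potassium channels (Kv) held the most risers. Of 40 such genes 39 were tested, and 25 rose in PRC1CKO cells, 25 in PRC1CPM cells and 24 in both, with none called lower and medians of 1.67 and 1.49 on the log2 scale. For PRC1CKO and PRC1CPM cells in turn, 5 and 6 of 11 tested auxiliary Kv genes rose, as did 3 and 2 of 11 inward rectifiers (Kir), 3 and 3 of 10 leak channels (K2P) and 3 and 3 of 11 potassium channels gated by calcium or sodium. Genes were placed in this last group by symbol, the auxiliary Kcnmb genes and Kcnu1 included. Among calcium channels 6 and 5 of 10 pore-forming (Cav) and 5 and 6 of 14 auxiliary genes rose. Among sodium channels 2 and 2 of 9 pore-forming (Nav) and 2 and 2 of 4 auxiliary genes rose. Beside 16.5% and 13.1% of all transcripts, these were 64.1% in each line of the Kv pore-forming genes, 45.5% and 54.5% of the auxiliary Kv genes, 27.3% and 18.2% of Kir, 30% in each line of K2P and 27.3% in each line of the potassium channels gated by calcium or sodium. They were 60% and 50% of the Cav pore-forming genes, 35.7% and 42.9% of the Cav auxiliary genes, 22.2% in each line of the Nav pore-forming genes and 50% in each line of the Nav auxiliary genes. The groups were not tested against each other, and the bar plot of calls by group shows their sizes.

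The sequence upstream of the start site ranged from few to many CG dinucleotides, both among genes that rose and among genes that did not. CpG islands, where CG is frequent, are known as sites of Polycomb binding in ESCs, which is why this dinucleotide was counted. Of the 134 genes, 81 had a RefSeq promoter (GRCm38.p6) whose start lay within 50 bases of that of the transcript used here, and the 250 bases before it were searched for CG, which reads the same on both strands. At least 1 CG stood in 97.5% of these windows and in 95.8% of those of all 13959 genes so matched. The median number was 14 in 30 channel genes that rose in both lines, 7 in 35 called in neither and 15 in all 11275 tested genes. Over all genes it was 15 in the 1154 that rose in both lines and 15 in the 9090 called in neither. No test was made. Shown 5′ to 3′ with CG in capitals are the most raised gene in PRC1CKO cells that has such a promoter (Cacna1c), risers with few (Kcnc2) and many (Cacna2d3 and Cacnb2) CG, the gene with the highest untreated level per kb (Kcnk5) and one that fell (Scn9a).
Cacna1c, chr6:119196410-119196659, minus strand: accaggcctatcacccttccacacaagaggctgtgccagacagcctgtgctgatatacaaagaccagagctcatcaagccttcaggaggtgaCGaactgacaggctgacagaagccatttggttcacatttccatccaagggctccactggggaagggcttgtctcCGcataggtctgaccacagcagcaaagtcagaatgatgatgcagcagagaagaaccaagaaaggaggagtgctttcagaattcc
Kcnc2, chr10:112270873-112271122, plus strand: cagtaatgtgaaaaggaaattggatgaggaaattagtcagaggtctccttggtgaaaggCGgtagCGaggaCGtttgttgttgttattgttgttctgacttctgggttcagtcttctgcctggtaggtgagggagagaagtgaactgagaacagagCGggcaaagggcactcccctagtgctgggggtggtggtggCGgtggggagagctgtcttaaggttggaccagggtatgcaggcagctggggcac
Cacna2d3, chr14:29721865-29722114, minus strand: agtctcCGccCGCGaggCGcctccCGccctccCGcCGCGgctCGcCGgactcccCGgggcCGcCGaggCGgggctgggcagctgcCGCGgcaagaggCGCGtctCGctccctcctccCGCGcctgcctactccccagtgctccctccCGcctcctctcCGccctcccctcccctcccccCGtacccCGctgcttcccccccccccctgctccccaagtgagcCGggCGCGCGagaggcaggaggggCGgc
Cacnb2, chr2:14604056-14604305, plus strand: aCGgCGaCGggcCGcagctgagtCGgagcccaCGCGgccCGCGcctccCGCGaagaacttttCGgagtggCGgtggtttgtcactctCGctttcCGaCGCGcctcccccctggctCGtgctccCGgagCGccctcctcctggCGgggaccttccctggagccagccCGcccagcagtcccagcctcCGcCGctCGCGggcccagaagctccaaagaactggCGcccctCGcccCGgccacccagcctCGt
Kcnk5, chr14:20181783-20182032, minus strand: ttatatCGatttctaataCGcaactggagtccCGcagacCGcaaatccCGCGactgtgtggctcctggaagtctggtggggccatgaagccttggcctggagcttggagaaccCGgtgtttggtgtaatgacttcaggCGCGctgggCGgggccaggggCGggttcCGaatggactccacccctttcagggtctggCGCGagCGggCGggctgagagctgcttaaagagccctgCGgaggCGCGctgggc
Scn9a, chr2:66634963-66635212, minus strand: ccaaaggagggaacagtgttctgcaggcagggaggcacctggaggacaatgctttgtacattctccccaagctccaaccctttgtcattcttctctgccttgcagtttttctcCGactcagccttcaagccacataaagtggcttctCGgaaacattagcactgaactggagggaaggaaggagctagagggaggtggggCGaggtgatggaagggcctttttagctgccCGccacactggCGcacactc
Cacna1c has 2 CG in 250 bases and Cacna2d3 has 30, and both rose in both lines. Kcnk5 has 19 and was called in neither, and Scn9a, which fell, has 5. Other start sites of these genes were not searched, and the genes shown were picked after their values were seen.

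Kcnd3, at chr3:105452330-105674002 (GRCm38, as all positions here), encodes a pore-forming subunit of the rapidly inactivating A-type current of neurons and heart. It had 25.3, 16.9 and 14.4 normalised read counts in untreated and 533, 367 and 413 in OHT-treated PRC1CKO libraries. In PRC1CPM cells it had 33.2, 18.8 and 43.4 before and 525, 397 and 379 after OHT. All treated libraries lay far above all untreated ones in both lines. It rose by 4.49 ± 0.34 on the log2 scale (SE, adjusted p = 3.33e-15) in PRC1CKO cells, the largest fold change of the tested channel genes there, and by 3.79 ± 0.34 (adjusted p = 3.58e-12) in PRC1CPM cells.

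Kcna1, at chr6:126636463-126645801, encodes a low-threshold potassium channel subunit of axons. It had 16.4, 8.47 and 14.4 normalised read counts in untreated and 285, 264 and 214 in OHT-treated PRC1CKO libraries. PRC1CPM libraries had 23.0, 12.3 and 19.0 before and 332, 168 and 237 after OHT. The groups did not overlap in either line. Kcna1 rose by 4.22 ± 0.38 (adjusted p = 7.21e-13) and 3.68 ± 0.38 (adjusted p = 1.3e-10). Exons make up 96.0% of its body, so that unlike for most channel genes its count is nearly all exonic.

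Kcnv1 and Kcna4 were close to absent before treatment. Kcnv1, a silent subunit that works only together with other Kv subunits, had 0, 2 and 0 reads in untreated and 16, 20 and 22 in OHT-treated PRC1CKO libraries, a ratio of 27.4 with a 95% exact counting interval of 7.26 to 232. Kcna4, an A-type subunit, had 0, 2 and 0 reads in untreated and 30, 9 and 16 in OHT-treated PRC1CPM libraries, a ratio of 21.9 (5.78 to 185). Such intervals and floors cover counting error only. Both genes reached 10 reads in 3 libraries only through OHT-treated cells. The rise passed in both lines for Kcnv1, by 3.74 ± 0.73 (adjusted p = 5.98e-05) and 2.81 ± 0.73 (adjusted p = 0.00372). It passed for Kcna4 too, by 2.74 ± 0.74 (adjusted p = 0.00443) and 3.53 ± 0.74 (adjusted p = 0.000331), the first of which was lost without untreated PRC1CKO replicate 2.

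Kcnc2 and Kcnc1 encode high-threshold channels of fast-firing neurons. Kcnc2 had 107, 119 and 63.4 normalised read counts in untreated and 761, 573 and 564 in OHT-treated PRC1CKO libraries, and 70.3, 104 and 40.7 before and 499, 369.6 and 323 after OHT in PRC1CPM cells. The groups did not overlap in either line. It rose by 2.74 ± 0.31 (adjusted p = 6.27e-10) in PRC1CKO and 2.53 ± 0.31 (adjusted p = 1.37e-08) in PRC1CPM cells. Kcnc1 had 0.83 ± 0.40 (adjusted p = 0.159) in PRC1CKO cells, a change that passed with the replicate block. It rose by 1.5 ± 0.40 (adjusted p = 0.00516) in PRC1CPM cells, a call that was lost without untreated PRC1CPM replicate 3. The difference between the paralogs was not tested.

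Some auxiliary Kv subunits rose, 5 and 6 of the 11 tested. Kcnip4, a calcium-binding partner of A-type channels whose body spans 896 kb, had 8, 30 and 6 reads in untreated and 139, 123 and 120 in OHT-treated PRC1CKO libraries. It rose by 3.22 ± 0.49 (adjusted p = 5.6e-07) and, in PRC1CPM cells, 2.95 ± 0.49 (adjusted p = 7.21e-06). Its paralog Kcnip1 rose by 2.70 ± 0.35 (adjusted p = 1.74e-08) and 1.60 ± 0.35 (adjusted p = 0.000561). Both are long genes that were nearly silent per kb, at 0.0124 and 0.143 in untreated cells. Kcne3, a subunit with 1 membrane span that reached the filter only through OHT-treated cells, had 0, 3 and 0 reads in untreated PRC1CKO libraries and 10, 11 and 14 after OHT, a ratio of 11.0 (3.48 to 56.1, adjusted p = 0.00405). Untreated PRC1CPM libraries held no read of Kcne3 and OHT-treated ones 10, 9 and 18, at least 10.2-fold higher against a floor of 3 reads over the group (adjusted p = 0.000571).

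Kcne1, a subunit of the slow cardiac potassium current, was called in PRC1CPM and not in PRC1CKO cells. It had 14.9, 6.16 and 8.46 normalised read counts in untreated and 24.4, 38.9 and 14 in OHT-treated PRC1CKO libraries, which overlapped. PRC1CPM libraries had 5.11, 8.48 and 2.71 before and 42.5, 37.9 and 61.3 after, with no overlap. The log2 fold changes were 1.27 ± 0.54 (adjusted p = 0.0943) and 2.98 ± 0.54 (adjusted p = 3.36e-05), and their difference of 1.71 ± 0.76 did not pass the interaction test. The PRC1CKO change passed with edgeR, with DESeq2, with the replicate block and without untreated PRC1CKO replicate 1. Kcnab3, a beta subunit with the highest level of the group (24.6 per kb), had 0.49 ± 0.30 and 0.80 ± 0.30 (adjusted p = 0.062) and was not called, though the PRC1CPM change passed with DESeq2, with TMM, with the replicate block and without the gDNA-seq correction.

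Among the inward rectifiers Kcnj5 rose most. It encodes a G protein-gated subunit of the atria and the adrenal gland and lies at chr9:32314783-32344237. It had 1, 2 and 4 reads in untreated and 52, 54 and 58 in OHT-treated PRC1CKO libraries, and 6, 2 and 0 before and 97, 62 and 52 after OHT in PRC1CPM cells. Untreated libraries thus held almost none, and the groups were far apart. The rise was 4.05 ± 0.60 (adjusted p = 3.83e-07) and 4.46 ± 0.60 (adjusted p = 1.07e-07), the largest fold change of the tested channel genes in PRC1CPM cells. Kcnj2, a strong rectifier that holds the resting potential of muscle, rose by 1.34 ± 0.39 (adjusted p = 0.00873), which was lost without untreated PRC1CKO replicate 2 or OHT-treated replicate 3, and by 2.02 ± 0.39 (adjusted p = 0.000101).

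Kcnj9, another G protein-gated subunit, rose by 2.18 ± 0.44 (adjusted p = 0.0001) in PRC1CKO cells and had 0.97 ± 0.44 (adjusted p = 0.15) in PRC1CPM cells, a change that passed without the gDNA-seq correction and with the replicate block, and where the groups did not overlap either. Kcnj3, the partner of Kcnj5 in the atrial channel, was transcribed before treatment. It had 2835, 2092 and 1507 normalised read counts in untreated and 3254, 2615 and 3136 in OHT-treated PRC1CKO libraries, which overlapped, and its log2 fold changes of 0.53 ± 0.22 and 0.52 ± 0.22 did not pass. The PRC1CKO change passed without untreated PRC1CKO replicate 1. In PRC1CPM cells the groups did not overlap, and the change passed without the gDNA-seq correction. The highest level of the group was that of Kcnj14, with 19.0 normalised read counts per kb in untreated cells and log2 fold changes of 0.17 ± 0.31 and 0.23 ± 0.31.

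K2P channels carry the leak current of the resting membrane. Kcnk13 had 32.8, 13.9 and 20.3 normalised read counts in untreated and 205, 117 and 155 in OHT-treated PRC1CKO libraries, and 25.6, 18.8 and 19.0 before and 191, 147 and 118 after OHT in PRC1CPM cells. A gap separated untreated from treated libraries in both lines. It rose by 2.82 ± 0.39 (adjusted p = 5.64e-08) and 2.78 ± 0.39 (adjusted p = 2.14e-07). Kcnk10, which encodes a channel opened by membrane stretch and lipids, rose by 2.82 ± 0.51 (adjusted p = 1.72e-05) and 2.36 ± 0.51 (adjusted p = 0.000437).

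Kcnk5, an acid-sensitive leak channel gene at chr14:20140058-20181782, had the highest level of the channel genes in untreated cells, 72.3 normalised read counts per kb. It had 3729.9, 3199 and 2858 normalised read counts in untreated and 2798, 2571 and 3130.0 in OHT-treated PRC1CKO libraries, and 3122, 2356 and 2833 before and 2647, 1866 and 2669 after OHT in PRC1CPM cells. The groups overlapped in both lines, with log2 fold changes of -0.20 ± 0.21 and -0.22 ± 0.21. Kcnk6, another K2P gene, started from 36.3 per kb and rose by 1.18 ± 0.26 (adjusted p = 0.000457) and 0.85 ± 0.26 (adjusted p = 0.019). The second call was lost without untreated PRC1CPM replicate 2 or OHT-treated replicate 1 or 3.

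**Figure D2:**
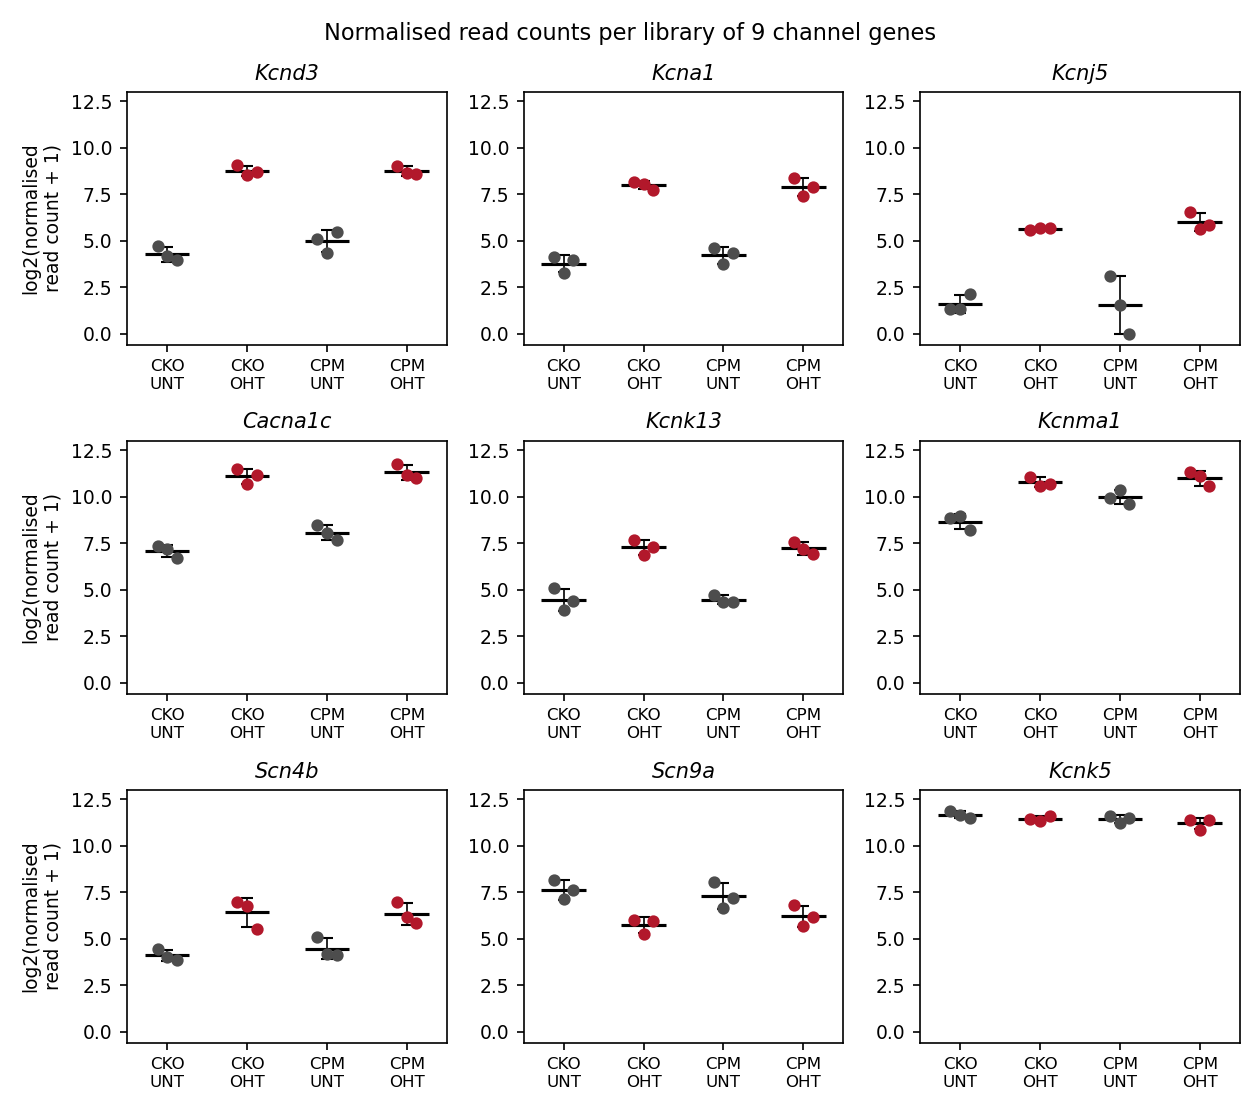
Normalised read counts as log2(value + 1) on the y axis for 9 channel genes in the 12 libraries (points), by condition on the x axis, with the mean (line) and SD (bars) of 3 libraries; CKO and CPM are the lines PRC1CKO and PRC1CPM. OHT-treated libraries (red) lie above untreated ones (grey) for Kcnd3, Kcna1, Kcnj5, Cacna1c, Kcnk13, Kcnma1 and Scn4b, are lower for Scn9a with an overlap in PRC1CPM cells, and overlap for Kcnk5.

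Among the potassium channels gated by calcium or sodium Kcnma1 rose most. It encodes the large-conductance (BK) channel and spans 698 kb. It had 456, 490.2 and 294 normalised read counts in untreated and 2169, 1550.4 and 1624 in OHT-treated PRC1CKO libraries, and 981, 1320.3 and 792 before and 2542, 2187 and 1511 after OHT in PRC1CPM cells. The groups did not overlap in either line, and all untreated PRC1CPM libraries lay above the untreated PRC1CKO ones. The rise was 2.12 ± 0.24 (adjusted p = 6.21e-10) and 1.01 ± 0.24 (adjusted p = 0.00172). Kcnmb4, an auxiliary BK subunit of neurons, rose by 1.22 ± 0.31 (adjusted p = 0.00208) in PRC1CKO cells. It had 0.59 ± 0.31 (adjusted p = 0.253) in PRC1CPM cells, a change that passed with the replicate block.

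Kcnt1, a sodium-activated channel gene, rose by 0.71 ± 0.24 (adjusted p = 0.0244) and 0.99 ± 0.24 (adjusted p = 0.00171). The PRC1CKO call was lost when the scale was not corrected by gDNA-seq and when any of its libraries but untreated replicate 1 was left out. Kcnu1, a sperm-specific channel gene, was placed in this group by symbol and not by what opens the channel. It fell in PRC1CPM cells by 0.96 ± 0.33 on the log2 scale (adjusted p = 0.0348), from 221, 208 and 290.1 normalised read counts to 129, 92.8 and 148, without overlap. In PRC1CKO cells it had -0.68 ± 0.33 (adjusted p = 0.157), which passed as a fall with TMM and with the replicate block. The PRC1CPM call was lost without the gDNA-seq correction, without the filter on low counts, and without untreated PRC1CPM replicate 3 or OHT-treated replicate 1 or 2. Kcnn1, a small-conductance channel gene with the highest level of the group (19.2 per kb), had -0.08 ± 0.27 and 0.04 ± 0.27.

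Cacna1c had the largest rise of the calcium channel genes in PRC1CKO cells, and Cacna1s in PRC1CPM cells. Cacna1c encodes the L-type channel of heart and smooth muscle and lies at chr6:118587240-119196409. It had 164, 143 and 103 normalised read counts in untreated and 2869, 1645 and 2273 in OHT-treated PRC1CKO libraries, and 355, 263 and 203 before and 3416, 2343 and 2031 after OHT in PRC1CPM cells. No treated library came near an untreated one. It rose by 4.03 ± 0.26 (adjusted p = 7.56e-18) and 3.24 ± 0.26 (adjusted p = 9.85e-14). Cacna1s, the L-type channel of skeletal muscle, rose by 3.39 ± 0.31 (adjusted p = 1.49e-12) and 3.36 ± 0.31 (adjusted p = 8.97e-12). Cacna1d, the L-type channel of pacemaker and endocrine cells, rose by 2.18 ± 0.25 (adjusted p = 4.39e-10) and 1.69 ± 0.25 (adjusted p = 5.83e-07).

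The R-type channel gene Cacna1e rose by 2.09 ± 0.31 (adjusted p = 5.11e-07) and 2.13 ± 0.31 (adjusted p = 8.09e-07). Cacna1i, a T-type channel gene, rose in PRC1CKO cells by 1.60 ± 0.30 (adjusted p = 3.2e-05) and had 0.64 ± 0.30 (adjusted p = 0.176) in PRC1CPM cells, a change that passed without the gDNA-seq correction of the scale and with the replicate block. Another T-type gene, Cacna1h, had the highest level of the group (24.6 per kb) and log2 fold changes of -0.26 ± 0.25 and 0.31 ± 0.25. Differences between the classes were not tested. Among genes named after their values were seen, the L-type gene Cacna1f had 0.92 ± 0.59 and 0.89 ± 0.59 and was not called, and the T-type gene Cacna1g rose by 1.21 ± 0.26 (adjusted p = 0.00023) and 1.45 ± 0.26 (adjusted p = 2.45e-05).

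The beta and alpha2delta subunits of calcium channels bring the pore to the membrane. Cacnb2, a beta subunit of the heart, had 235, 154 and 113 normalised read counts in untreated and 1783, 1232 and 1468 in OHT-treated PRC1CKO libraries, and 280.0, 298 and 243 before and 1582, 1402 and 1058 after OHT in PRC1CPM cells. Treated and untreated libraries did not overlap. It rose by 3.20 ± 0.26 (adjusted p = 1.94e-14) and 2.28 ± 0.26 (adjusted p = 1.39e-09). Cacna2d3, an alpha2delta subunit spanning 817 kb, rose by 2.96 ± 0.26 (adjusted p = 3.96e-13) and 2.35 ± 0.26 (adjusted p = 9.89e-10). Cacnb4, a beta subunit of the brain, rose by 2.21 ± 0.27 (adjusted p = 4.86e-09) and 1.09 ± 0.27 (adjusted p = 0.00265). Cacnb3, the beta subunit with the highest level (41.6 per kb), had 0.65 ± 0.25 (adjusted p = 0.0577) and 0.52 ± 0.25. The first passed with the replicate block and the second without the gDNA-seq correction.

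Cacna2d4, an alpha2delta subunit of the retina, fell in PRC1CKO cells. It had 38.7, 23.1 and 38.1 normalised read counts in untreated and 10.8, 13 and 14.8 in OHT-treated libraries, without overlap, a fall of 1.28 ± 0.44 on the log2 scale (adjusted p = 0.0297). In PRC1CPM cells it had 38.4, 45.2 and 51.5 before and 30.9, 32.5 and 35.1 after OHT, with a log2 fold change of -0.44 ± 0.44 that was not called. The PRC1CKO call was lost when any of its libraries but untreated replicate 2 was left out. Lrtm2 overlaps 12.1% of its body on the opposite strand, and the strand used for counting is not given in the sources used here, so that reads of both cannot be told apart.

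Sodium channel genes moved in both directions. Scn4b, an auxiliary subunit gene, had 20.9, 15.4 and 13.5 normalised read counts in untreated and 125, 109 and 45.4 in OHT-treated PRC1CKO libraries, and 33.2, 17.0 and 16.3 before and 125, 69.6 and 57.0 after OHT in PRC1CPM cells. The groups did not overlap in either line. It rose by 2.32 ± 0.44 (adjusted p = 3.96e-05) and 1.87 ± 0.44 (adjusted p = 0.00127). Scn3b, also auxiliary, rose by 1.18 ± 0.29 (adjusted p = 0.00156) and 1.10 ± 0.29 (adjusted p = 0.00453), the latter lost without OHT-treated PRC1CPM replicate 1. Scn8a, a channel of axons with the highest level of the pore genes in untreated cells (7.83 normalised read counts per kb), had log2 fold changes of 0.14 ± 0.22 and 0.13 ± 0.22 and was not called.

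Scn3a, Scn2a1, Scn1a, Scn9a and Scn7a start within 1217 kb of each other on chromosome 2, and they did not move together. Scn9a, the channel of pain-sensing neurons at chr2:66480081-66634962, had 289, 139 and 194 normalised read counts in untreated and 63.3, 37.0 and 60.2 in OHT-treated PRC1CKO libraries. In PRC1CPM cells it had 261, 98.0 and 144 before and 110.0, 49.5 and 71.2 after OHT. The groups were apart in PRC1CKO and overlapped in PRC1CPM cells. It fell by 1.91 ± 0.36 on the log2 scale (adjusted p = 4.73e-05) and by 1.07 ± 0.36 (adjusted p = 0.0362), and the second call was lost without the gDNA-seq correction, without the filter on low counts and without untreated PRC1CPM replicate 1 or 3 or OHT-treated replicate 2 or 3. Gm13629 overlaps 43.5% of its body on the opposite strand, with the same limit.

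Scn3a, a channel of the developing brain, fell in PRC1CKO cells by 1.13 ± 0.40 (adjusted p = 0.034), from 226, 92.3 and 118 normalised read counts to 88.6, 38.9 and 66.3, and had -0.47 ± 0.40 in PRC1CPM cells, where the groups overlapped. The PRC1CKO groups did not overlap, and the PRC1CKO call was lost without the filter on low counts and without untreated PRC1CKO replicate 1 or 3 or OHT-treated replicate 2 or 3. Scn1a, a channel of inhibitory neurons, rose by 1.22 ± 0.36 (adjusted p = 0.0107), which was lost without untreated PRC1CKO replicate 2 or 3 or OHT-treated replicate 1, and by 1.70 ± 0.36 (adjusted p = 0.000402). Scn2a1, a channel of excitatory neurons, had 0.35 ± 0.47 and 0.31 ± 0.47, and Scn7a had too few reads to test. The map of these neighbouring genes shows the opposite directions.

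**Figure D3:**
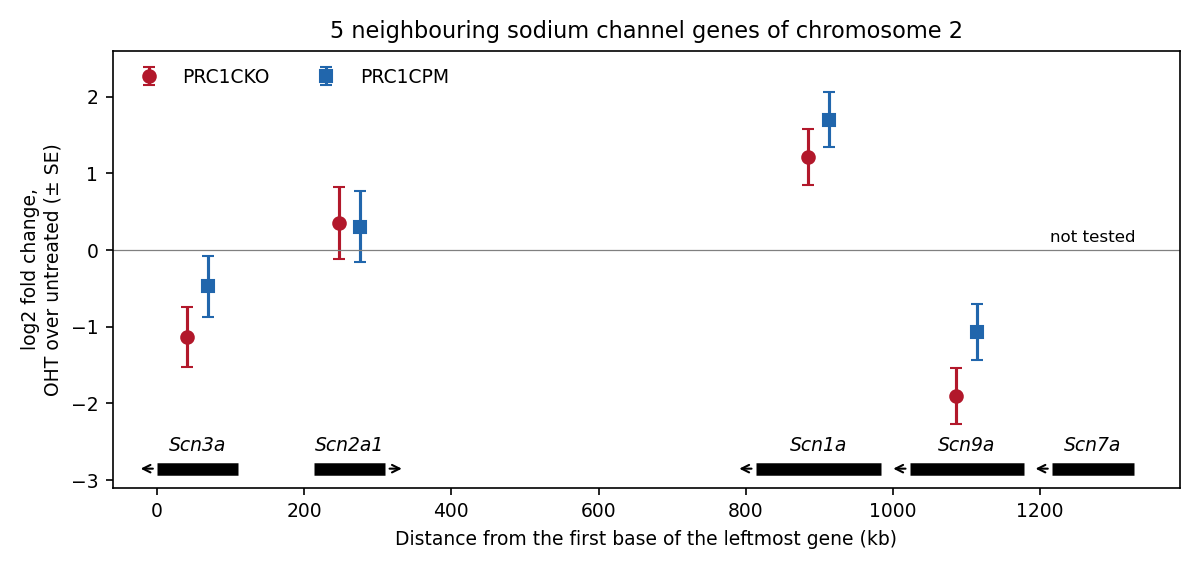
Log2 fold change with SE (y axis) of the neighbouring sodium channel genes of chromosome 2 in PRC1CKO (red circles) and PRC1CPM cells (blue squares), by distance in kb (x axis); black bars are gene bodies and arrows give the direction of transcription. Scn1a lies above 0, Scn3a and Scn9a below it, Scn2a1 within its SE of 0, and Scn7a was not tested.

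Another cluster also held 5 channel genes within 2 Mb. On chromosome 11, Kcnh6, Scn4a, Cacng1, Cacng4 and Cacng5 start within 1907 kb. Of these Cacng4, placed among the auxiliary calcium channel genes by symbol alone, was called. It rose by 1.07 ± 0.32 (adjusted p = 0.0132) in PRC1CPM cells, a call that was lost without untreated PRC1CPM replicate 3 or OHT-treated replicate 1. Its PRC1CKO change of 0.73 passed with DESeq2 and with the replicate block. The 5 log2 fold changes in PRC1CKO cells ran from -0.67 (Cacng5) to 0.99 (Cacng1), and those in PRC1CPM cells from -0.51 (Kcnh6) to 1.25 (Scn4a). Scn4a, the sodium channel of skeletal muscle, missed the threshold there (1.25 ± 0.47, adjusted p = 0.0664) and passed with edgeR, DESeq2, TMM, the replicate block and without the gDNA-seq correction. The PRC1CKO change of Cacng5, grouped by symbol like Cacng4 (adjusted p = 0.0691), passed as a fall with DESeq2, TMM, the replicate block and without the gDNA-seq correction.

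Channel genes that rose in both lines had longer bodies and lower starting levels than those called in neither. The 50 risers had a median body of 94.2 kb and a median level of 0.83 normalised read counts per kb in untreated and 3.85 in OHT-treated cells. The 57 genes called in neither line had a median body of 30.4 kb and levels of 7.83 before and 7.53 after OHT. All tested transcripts had a median body of 23.1 kb and an untreated level of 20.2 per kb, so that the median riser after OHT still lay below the median transcript before it. No test was made of these differences, and a gene with few reads passes only with a large change. The level per kb is the count divided by the body length, and the untreated count also enters the fold change. Length, level and call are therefore not separate measures, and no such split by call was made over all transcripts. Where the call differed between the lines, 4 genes were called higher in PRC1CKO cells and not in PRC1CPM cells (Kcnmb4, Cacna1i, Kcnj9 and Kcng1) and 4 the other way round (Kcne1, Kcnc1, Cacng4 and Kcnn3), of which Kcng1 and Kcnn3 are named after their values were seen. With limma the difference between the lines passed the interaction test for none of the 8, though for Cacna1i with the replicate block. With that block Kcnmb4, Cacna1i and Kcnj9 were called higher in PRC1CPM cells too, and Kcne1, Kcnc1 and Cacng4 in PRC1CKO cells too.

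**Figure D4:**
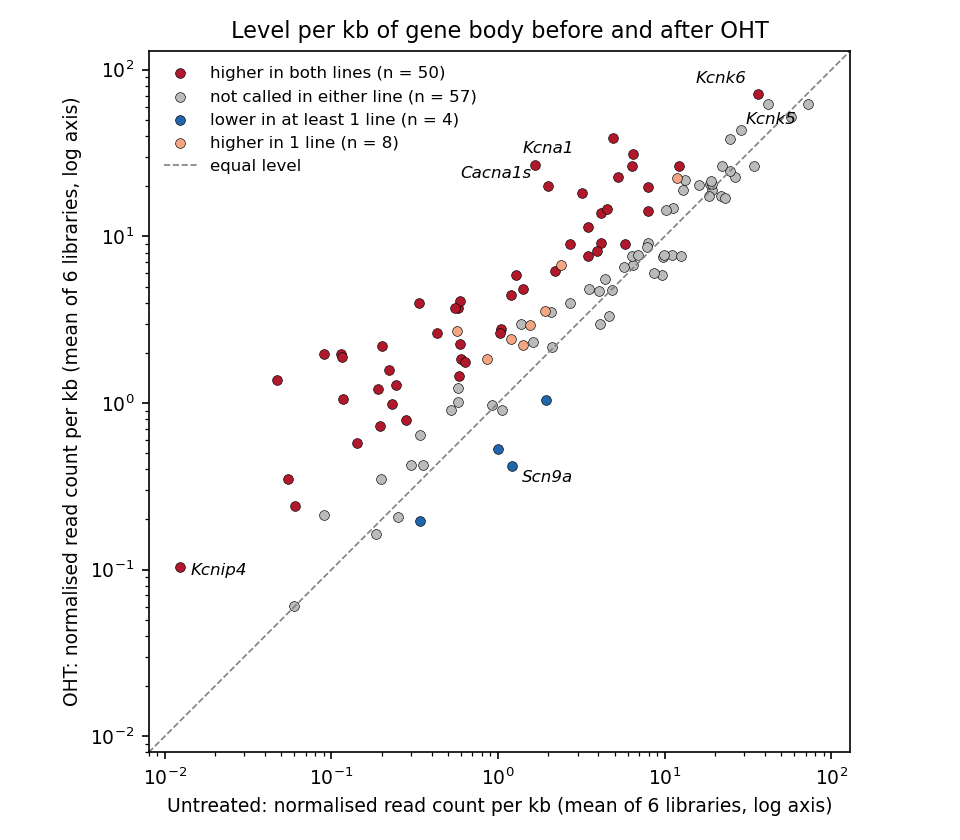
Normalised read count per kb of gene body in untreated (x axis) and OHT-treated cells (y axis) of the 119 tested channel genes, each the mean of 6 libraries, on log axes, coloured by call. The 50 genes that rose in both lines lie above the dashed line of equal level, and Kcnk5 at the far right lies just below it.

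The response of the lines was compared by the interaction of line and treatment, which asks whether loss of catalysis moved a gene as far as loss of the complex. With limma 0 of the 119 genes passed, where 0.0236% of all transcripts did, and edgeR and DESeq2 called 0 as well. With the replicate block 8 passed, each with a lower log2 fold change in PRC1CPM than in PRC1CKO cells. Over all 16940 transcripts 246 passed as lower and 78 as higher with the block. Among the 8 was Kcnmb2, whose changes had opposite signs, 0.54 in PRC1CKO and -0.85 in PRC1CPM cells. Neither was called in the main fit, and the second passed as a fall with TMM and with the block. At an unadjusted p under 0.05 limma had 1 gene with a higher and 8 with a lower log2 fold change in PRC1CPM cells, beside 0.756% and 2.18% of all transcripts. In that order edgeR and DESeq2 each had 0 and 9, beside 0.85% and 2.24% with edgeR and 0.909% and 2.3% with DESeq2. Of the 50 genes called in both lines, 36 had a smaller fold change in PRC1CPM cells, but 18 of 50 without the gDNA-seq correction of the scale. Without that correction the median difference over all transcripts was 0.43 in place of -0.02, and relative to these medians 36 of the 50 lay lower on both scales. The same share was not worked out for the 1957 transcripts called higher in both lines. These counts are therefore not shown to be particular to channel genes. Kcnc2, Cacna1i, Kcnma1, Cacna1c, Cacnb4 and Cacnb2 are in a deposited list of genes partially derepressed in PRC1CPM cells, which was chosen on these samples and is not independent evidence. Their differences ran from -1.11 (Cacnb4) to -0.21 (Kcnc2) on the log2 scale, and all but Kcnc2 passed with the replicate block. A smaller fold change was not always a lower level after OHT. In OHT-treated cells PRC1CPM differed from PRC1CKO by 0.20 for Cacna1c, 0.19 for Cacna1i and 0.21 for Kcnma1, all higher in PRC1CPM cells before treatment. It differed by -0.15 for Cacnb2, -0.39 for Cacnb4 and -0.68 for Kcnc2. None of these was called in the main fit, though Kcnc2 passed with the block.

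**Figure D5:**
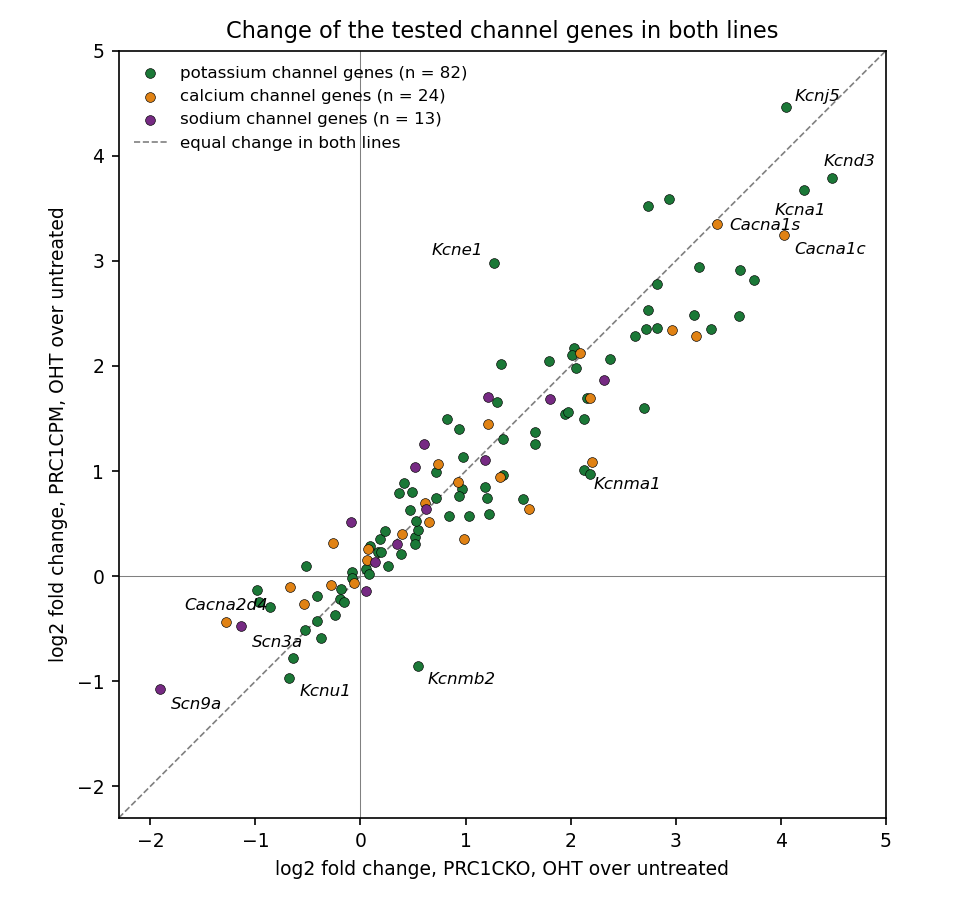
Log2 fold change after OHT in PRC1CKO (x axis) and PRC1CPM cells (y axis) of the 119 tested channel genes, coloured by ion, with a dashed line of equal change. Points spread along the line, with Kcnj5, Kcnd3, Kcna1 and Cacna1c at the upper right and Scn9a at the lower left, and Kcne1 and Kcnmb2 lie far from it.

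Some channel genes differed between the lines before treatment. In untreated cells 7 were higher and 1 was lower in PRC1CPM than in PRC1CKO cells, beside 2.21% and 0.478% of all transcripts. With the replicate block these counts were 17 and 4 of 119, beside 1631 and 253 of all 16940 transcripts. Kcnma1 was higher by 1.32 ± 0.24 on the log2 scale (adjusted p = 0.00046) and Kcnip1 by 1.71 ± 0.35 (adjusted p = 0.00196). Kcnv2, a silent Kv subunit of the retina, had 2, 4 and 2 reads in PRC1CKO and 12, 12 and 10 in PRC1CPM libraries and was higher by 2.02 ± 0.49 (adjusted p = 0.0114). The other higher genes were Kcnmb2, an auxiliary BK subunit (1.30 ± 0.38, adjusted p = 0.0437), Kcnu1 (1.27 ± 0.33, adjusted p = 0.0191), Cacna1i (1.15 ± 0.30, adjusted p = 0.0212) and Cacna1c (0.99 ± 0.26, adjusted p = 0.0224). For each of the 7 all PRC1CPM libraries lay above all PRC1CKO libraries. Kcnma1 and Kcnip1 passed whichever library was left out and on the uncorrected spike-in scale, whereas the other 5 were lost on that scale and without single untreated libraries of either line. Cacna1c, Cacna1i, Kcnmb2 and Kcnu1 were also lost without the filter on low counts. The Kcnmb2 call was lost too with a pseudocount of 0.1 and without OHT-treated PRC1CKO replicate 2 or 3.

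Kcnj3 was lower in PRC1CPM cells both before and after OHT. Untreated PRC1CPM libraries had 1174, 1270.3 and 1009.9 normalised read counts and OHT-treated ones 2048, 1591 and 1371, all below every PRC1CKO library of the same treatment. The log2 difference was -0.86 ± 0.22 (adjusted p = 0.0224) before and -0.86 ± 0.22 (adjusted p = 0.0294) after OHT. The untreated call was lost without untreated PRC1CKO replicate 1 or 2 or untreated PRC1CPM replicate 3. The OHT-treated call was lost without the gDNA-seq correction, without the filter, with a pseudocount of 0.1 and without any OHT-treated library but PRC1CPM replicate 1. In OHT-treated cells it was the only tested channel gene called lower in PRC1CPM cells (beside 0.218% of all transcripts), and limma called 0 higher (beside 1.25%), with 9 at an unadjusted p under 0.05 (beside 8.85% of all transcripts), while edgeR called 0 and DESeq2 1. With the replicate block 3 of the 119 were lower and 8 higher, beside 232 and 1131 of all 16940 transcripts.

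Other cation channels and partners of channels were described from a list of their own. Of 38 listed genes with a value 36 were tested, of which 8 rose and 3 fell in PRC1CKO and 6 rose and 1 fell in PRC1CPM cells, with medians of 0.45 and 0.21. Those that rose were 22.2% and 16.7% of those tested, beside the 16.5% and 13.1% of all transcripts, and those that fell were 8.33% and 2.78%, beside 3.09% and 1.4%. Stac, an adaptor of L-type channels, rose by 2.79 ± 0.45 (adjusted p = 2.54e-06) and 2.98 ± 0.45 (adjusted p = 1.53e-06). Fgf13, which binds sodium channels inside the cell, rose by 2.69 ± 0.28 (adjusted p = 5.02e-11) and 1.98 ± 0.28 (adjusted p = 3.36e-07). Lrrc38, a BK partner, rose by 2.22 ± 0.44 (adjusted p = 7.15e-05) in PRC1CKO cells and had 0.81 ± 0.44 in PRC1CPM cells, and Lgi1, a secreted partner of Kv channels, had 1.10 ± 0.72 and 2.16 ± 0.72 (adjusted p = 0.0315). Lgi1 reached 10 reads in 3 libraries only in OHT-treated PRC1CPM cells, and its adjusted p is no separate support for a rise.

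REST is a repressor of neuronal genes, many channel genes included. Rest had 4930.5, 2927 and 3709.6 normalised read counts in untreated and 2343, 2236 and 2302 in OHT-treated PRC1CKO libraries, and 4530.1, 3151 and 4293 before and 3240.4, 2156 and 2909 after OHT in PRC1CPM cells. It fell by 0.72 ± 0.21 (adjusted p = 0.0109) in PRC1CKO cells and had -0.53 ± 0.21 (adjusted p = 0.0965) in PRC1CPM cells. The other 11 genes of the list, which encode its corepressors, were called in neither line. The part of Rest in the change of the channel genes was not tested.

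Markers of neurons moved both ways. Of 13 with a value 12 were tested (all but Dcx), and 3 rose and 4 fell in PRC1CKO and 3 rose and 1 fell in PRC1CPM cells. The shares that rose, 25% in each line, stood beside 16.5% and 13.1% of all transcripts, and the shares that fell, 33.3% and 8.33%, beside 3.09% and 1.4%. Rbfox3, a splicing factor of mature neurons, rose by 1.39 ± 0.27 (adjusted p = 5.22e-05) and 0.90 ± 0.27 (adjusted p = 0.0139), whereas Snap25, which serves vesicle fusion, fell by 1.99 ± 0.37 (adjusted p = 3.77e-05) and 1.35 ± 0.37 (adjusted p = 0.00777). Tubb3, a neuronal tubulin, fell by 0.71 ± 0.25 (adjusted p = 0.037) in PRC1CKO cells and had -0.43 ± 0.25 in PRC1CPM cells. Summed over the list, with Stmn2 the most abundant, PRC1CKO libraries held 14342, 9306 and 9515 normalised read counts before and 10684, 8455 and 10845 after OHT, and PRC1CPM libraries 11911, 9334 and 9487 and 12895, 7971 and 10216. These sums overlapped in both lines.

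Of 14 markers of heart and skeletal muscle 13 were tested (all but Myog), and 4 rose and 1 fell in PRC1CKO and 2 rose and 1 fell in PRC1CPM cells. The risers were 30.8% and 15.4% of those tested, beside 16.5% and 13.1% of all transcripts, and 7.69% fell in each line, beside 3.09% and 1.4%. Nkx2-5, a cardiac transcription factor, rose by 1.95 ± 0.51 (adjusted p = 0.00294) and 2.21 ± 0.51 (adjusted p = 0.00105). Ttn, which encodes the sarcomere protein titin, fell by 1.42 ± 0.27 (adjusted p = 5.47e-05) and 0.93 ± 0.27 (adjusted p = 0.0123). With Ryr2 the most abundant, the list summed to 6892, 4865 and 4558 before and 7108, 5667 and 6810.4 after OHT in PRC1CKO cells, and to 6778, 5488 and 5761 and 8958, 6301 and 6629 in PRC1CPM cells. The sums overlapped in both lines.

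Markers of primitive endoderm rose, 6 of 10 in PRC1CKO and 8 of 10 in PRC1CPM cells (beside 16.5% and 13.1% of all transcripts), with medians of 1.55 and 1.42. Gata6, a transcription factor of this lineage, rose by 2.96 ± 0.32 (adjusted p = 1.2e-10) and 2.26 ± 0.32 (adjusted p = 2.91e-07). With Lamb1 the most abundant, the list summed to 24527, 14681 and 12251 before and 32564, 27642 and 25489.8 after OHT in PRC1CKO cells, and to 19257, 14271 and 15677 and 28578, 18406 and 21518 in PRC1CPM cells. The sums did not overlap in PRC1CKO and overlapped in PRC1CPM cells. Of 8 glia markers 6 were tested and 3 rose in each line, again beside 16.5% and 13.1%, among them Olig2, a transcription factor of oligodendrocytes, by 4.35 ± 0.71 (adjusted p = 2.74e-06) and 3.69 ± 0.71 (adjusted p = 9.06e-05). Olig2 reached 10 reads in 3 libraries only through OHT-treated cells. The glia sums, with Mbp the most abundant, were 849, 517 and 535 before and 1270.0, 1048 and 1092 after OHT in PRC1CKO and 959, 773 and 632 and 1623, 1075 and 1083 in PRC1CPM cells, and they did not overlap in both lines. In bulk samples fewer cells of a type and less RNA per cell cannot be told apart, and the part of these cell types in the change of the channel genes was not tested.

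Of 13 ESC markers 1 rose and 3 fell in PRC1CKO and 2 rose and 1 fell in PRC1CPM cells. The shares that fell were 23.1% and 7.69%, beside 3.09% and 1.4% of all transcripts, and the shares that rose 7.69% and 15.4%, beside 16.5% and 13.1%. Klf2, a pluripotency factor gene, fell by 1.47 ± 0.23 (adjusted p = 8.18e-07) and 1.04 ± 0.23 (adjusted p = 0.000456), and Sox2 fell by 0.89 ± 0.20 (adjusted p = 0.00051) in PRC1CKO cells and had -0.45 ± 0.20 in PRC1CPM cells. Dppa2 rose by 0.80 ± 0.26 (adjusted p = 0.0189) and 0.80 ± 0.26 (adjusted p = 0.0248). Tbx3 rose by 0.97 ± 0.20 (adjusted p = 0.000299) in PRC1CPM cells and had 0.56 ± 0.20 (adjusted p = 0.0394, below the fold of 1.5) in PRC1CKO cells. Pou5f1 (-0.56 ± 0.23 and -0.25 ± 0.23) and Nanog (-0.22 ± 0.20 and 0.37 ± 0.20) were called in neither line. With Tdgf1 the most abundant, the list summed to 113680.0, 76660.4 and 85456 before and 72068, 71978 and 81815 after OHT in PRC1CKO cells, and to 89434, 63733 and 78706 and 87571, 50589 and 86669.7 in PRC1CPM cells, and no gene of the marker lists was at 0 in all libraries.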

How the data were processed

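The 12 cRNA-seq libraries were grouped by line and treatment as labelled. The genes and gene lists were chosen with earlier results of these data known. The authors aligned reads to mm10 with dm6, kept unique reads without duplicates, counted them over gene bodies and deposited the signal as normalised read counts, divided by a spike-in size factor corrected by matched gDNA-seq. The deposited columns that hold the authors' own DESeq2 log2 fold changes and adjusted p-values were not used. Dividing by the worth of 1 read gave whole numbers, within 0.02 reads, for 100% of the values of every library, and these reads were recovered. Log2(value + 1) was fitted with limma 3.58.1 (R 4.3.3), with 1 mean per condition, a trend and Benjamini-Hochberg adjustment over 16940 transcripts. This scale understates the change of low genes. All adjusted p-values are from limma unless another tool is named, and ± gives its SE. The interaction needed an adjusted p under 0.05 alone. The study calls its replicates biological. Nothing in the labels says that they were separate cultures, and p-values measure the spread between these samples. Deviations of same-numbered libraries from the condition means had a correlation over 0.1 in 17 of 18 pairs (lowest 0.0988, within PRC1CKO), and each of the 12 libraries correlated best with its own number. This pairing comes from the data, since the labels name no shared day or batch. Calls within a line that a replicate block added are given for the reported channel genes named by the rule below. Between the lines its effect is given mostly as counts. The script was tested on simulated data. Alternatives were edgeR 4.0.16 and DESeq2 1.42.0 on the recovered reads, TMM, the spike-in scale without the gDNA-seq correction (from library totals the study gives), no filter, a pseudocount of 0.1, a block and each library left out. Named were, in each of 9 groups, up to 3 called genes with the largest change in each line and the gene with the highest untreated level per kb, as well as genes called lower or different between the lines, genes in the deposited partially derepressed list and the 3 largest clusters within 2 Mb. Partner lists gave up to 4 genes by size of change, and Rest, Pou5f1, Nanog, Sox2 and Tubb3. Some of the genes so chosen are not reported here.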

Additional observations from a re-analysis of the deposited data

How the results depend on the processing

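The number of channel genes called higher after OHT, 54 in each line, stayed within 1.5 times under every alternative run, from 49 to 63 in PRC1CKO and 47 to 57 in PRC1CPM cells when 1 library was left out. Smaller counts moved. DESeq2 gave 5 lower genes in PRC1CKO cells (main 3), a median log2 fold change there of 0.738 (main 0.92; 0.640 in place of 0.809 relative to all transcripts), 1 gene higher in OHT-treated PRC1CPM than PRC1CKO cells (main 0) and 2 lower in untreated ones (main 1). TMM gave 11 and 5 lower genes in PRC1CKO and PRC1CPM cells (1133 and 595 of all transcripts). It gave 2 higher and 2 lower between OHT-treated lines (524 and 261 of all transcripts) and 5 lower between untreated lines (305). Without the gDNA-seq correction 5 and 0 genes fell, 0 were lower between OHT-treated lines, and 2 were higher and 2 lower between untreated lines. The PRC1CPM median was then 1.10 in place of 0.80, and 0.703 in both relative to all transcripts. The median over all transcripts was then -0.04 in PRC1CKO and 0.39 in PRC1CPM cells, in place of 0.12 and 0.10. Without the filter 0 genes fell in PRC1CPM cells, 0 were lower between OHT-treated lines and 3 higher between untreated lines, and a pseudocount of 0.1 left 0 lower between OHT-treated lines. With 1 library left out, lower genes ranged from 1 to 4 in PRC1CKO and 0 to 4 in PRC1CPM cells, lower genes between OHT-treated lines from 0 to 1, and between untreated lines higher genes from 2 to 13 and lower ones from 0 to 2. The PRC1CKO median ranged from 0.749 to 0.935, or 0.638 to 0.822 relative to all transcripts, and the PRC1CPM median from 0.614 to 1.02, or 0.654 to 0.842 relative to all transcripts. The cause was not tested. No call of a named gene changed direction under these alternatives.

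With the replicate block in the fit, 9 and 5 genes fell in PRC1CKO and PRC1CPM cells (823 and 461 of all transcripts). For 8 the log2 fold change was lower in PRC1CPM cells (246 of all transcripts). Cacna1c, Cacna1i, Cacnb2, Cacnb4 and Kcnma1 were among the 8, as was Kcnmb2, with 0.54 in PRC1CKO and -0.85 in PRC1CPM cells. Between OHT-treated lines 8 were higher and 3 lower (1131 and 232 of all transcripts). Between untreated lines 17 were higher and 4 lower (1631 and 253). No call of a named gene was lost with the block.

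Depth limits the genes with few reads. The 15 channel genes not tested had at most 12 reads in a library.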

Other observations

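Of the 134 channel genes 15 were not tested, and their total over the 12 libraries ran from 0 to 54 reads. Kcna10, chosen here after its values were seen, was listed at 0 in all libraries.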
